A study of Glycine max with 21 samples.

Results

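The HD-Zip III genes of soybean (Glycine max) were followed gene by gene in root libraries under dehydration and salt. The set held 10 genes in 5 homoeologous pairs, that is, pairs of copies kept after the last genome duplication of the Glycine lineage. It was taken from the study's list of soybean HD-Zip III genes and their homoeologous copies. No expression value entered the rule, but the choice was made with earlier results of these data known. All 10 were found among the 62537 gene models of the deposited tables, and all 10 were among the 36691 genes with enough reads to be tested. The pairs were Glyma06g09100 with Glyma04g09000, Glyma05g30000 with Glyma08g13110, Glyma07g01940 with Glyma08g21610, Glyma07g01950 with Glyma08g21620, and Glyma09g02750 with Glyma15g13640. Glyma04g09000 was listed as the homoeologous copy of Glyma06g09100 and was not itself called an HD-Zip gene in the Glyma1.0 annotation. It is counted among the 10 as that listed copy, and the ratio of this pair rests on it. By their identifiers the genes lay on chromosomes 4, 5, 6, 7, 8, 9 and 15, and Glyma07g01940 and Glyma07g01950, like Glyma08g21610 and Glyma08g21620, carried neighbouring numbers on the same chromosome.

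HD-Zip proteins are plant transcription factors that join a homeodomain, which binds DNA, to a leucine zipper, through which they pair, and those of class III also carry a START domain and a MEKHLA domain. In Arabidopsis the class acts in the formation of xylem and other vascular tissue, in meristems, and in the upper and lower sides of leaves, and its transcripts are cut under the direction of the microRNAs miR165 and miR166. In Arabidopsis roots the level of class III activity across the stele sets which type of xylem cell forms.

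The libraries came from roots of the single cultivar Williams 82, from seedlings at the V1 stage, when the first trifoliolate leaf has opened. The control group was harvested at 0 hr with no stress. The salt groups came from seedlings moved into 100 mM NaCl for 1, 6 or 12 hr, and the dehydration groups from seedlings taken off their germination paper and kept in air for 1, 6 or 12 hr. Each of the 7 groups had 3 libraries, described as biological replicates, and the number of plants behind a library is not given in the sources used here. No unstressed root was sampled at 1, 6 or 12 hr, so that stress, time of day and handling cannot be told apart in a comparison with the control. The root label was not checked against marker genes, because the gene identifiers of the files could not be paired with gene names.

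The libraries held between 3752853 and 28177205 counted reads, with a median of 6956557. The 10 HD-Zip III genes had between 30 and 3032 reads each in any library, so none of them was near the detection limit. Levels are given as CPM, which are counts scaled to a common library size. They are not divided by transcript length, so that levels of different genes are not compared with each other. A gene was called changed when edgeR's quasi-likelihood test gave an adjusted p under 0.05 (Benjamini-Hochberg over all tested genes) and the change was at least 2-fold. The sequencing lane was not balanced over the groups: all libraries of salt 1 hr and salt 6 hr ran in lane 2, where no control ran, whereas the salt 12 hr libraries ran in lanes 2, 3 and 4. The controls ran in lanes 3 and 4, dehydration 1 hr in lane 3, dehydration 6 hr in lanes 3 and 4, and dehydration 12 hr in lane 4.

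Of the 10 HD-Zip III genes, 1 changed past the threshold, at 1 time point of salt, and others lay below the control without passing the test. Glyma06g09100 stood below its control level in every library of salt 12 hr and fell by 1.09 on the log2 scale, the 1 call among the 10 genes at a time when 12.4% of all tested genes were called, while its homoeologous copy Glyma04g09000 overlapped the control. None of the 10 genes was called by edgeR under dehydration at 1, 6 or 12 hr, when 2.59%, 2.03% and 2.01% of all tested genes were, nor under salt at 1 or 6 hr, when 1.6% and 9.66% were.

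**Figure D1:**
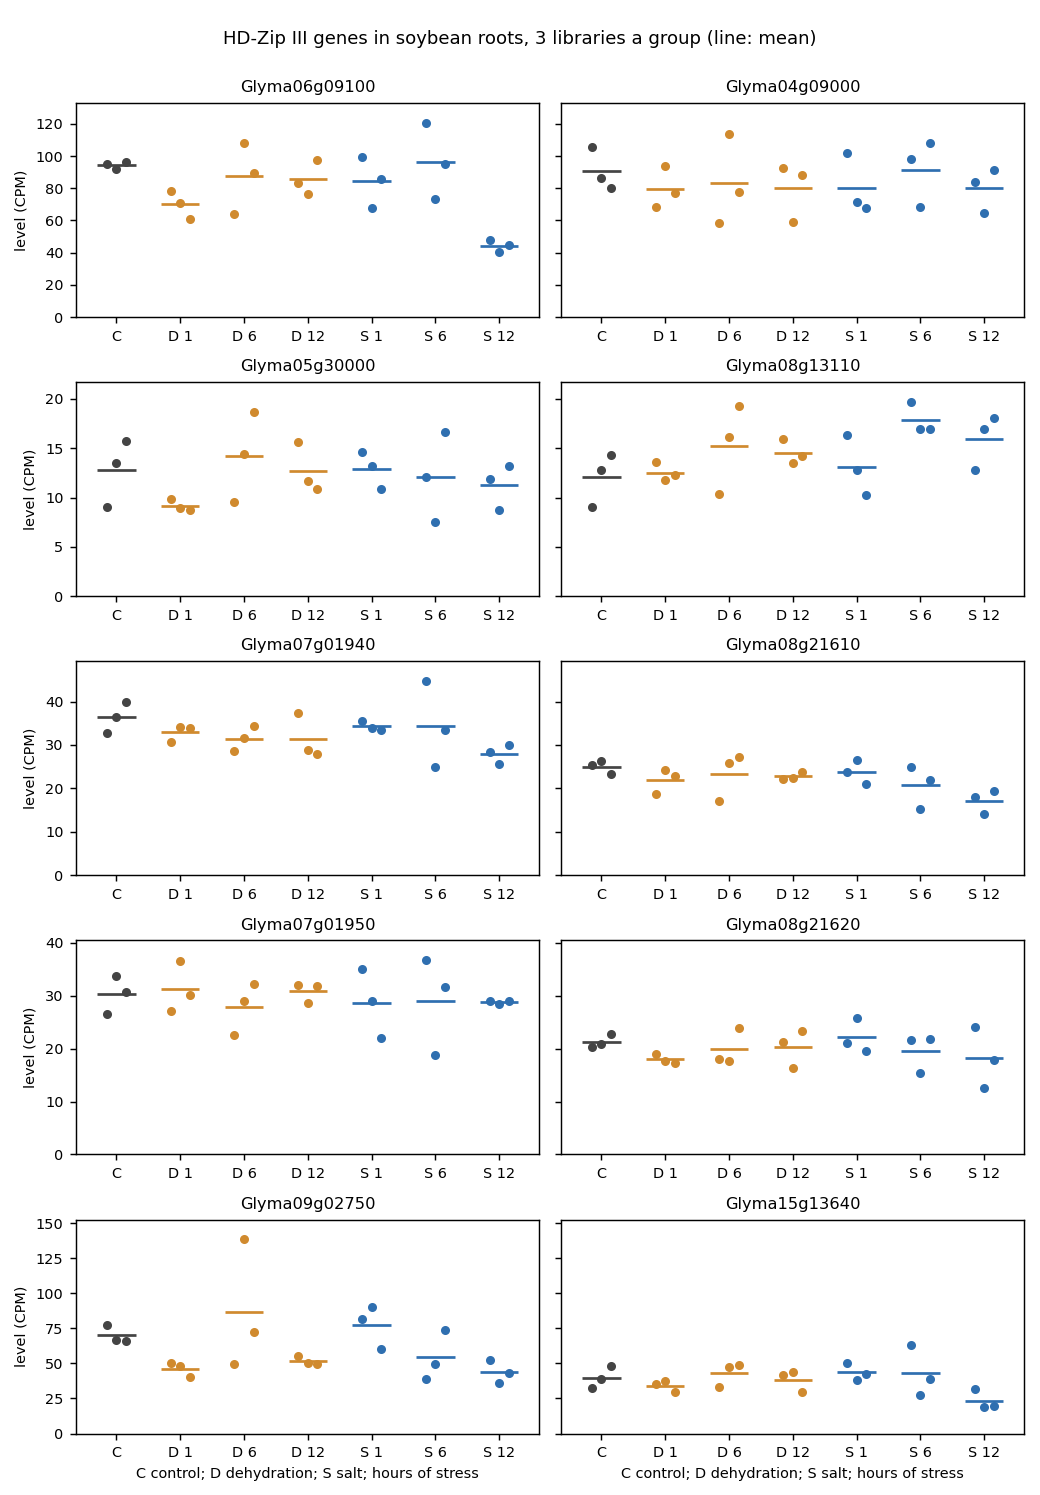
Level of each of the 10 HD-Zip III genes in CPM (y axis, from 0) in the 7 groups (x axis: C control, D dehydration, S salt, with hours of stress); each point is 1 library, each line the mean of 3, and homoeologous copies share a row and its scale. The 3 libraries of salt 12 hr stand between 40.5 and 48.1 CPM for Glyma06g09100, apart from the 18 others, at 61.2 to 121 CPM.

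Glyma06g09100 had 94.9, 92.2 and 96.2 CPM in the control libraries, from 690, 810 and 860 reads. At salt 12 hr it had 48.1, 40.5 and 44.8 CPM, from 222, 379 and 376 reads. The lowest of the 18 other libraries, stressed or not, stood at 61.2 CPM, so that the salt 12 hr group overlapped none of the others. How many of all tested genes show such a gap to the 18 others was not counted. Against the controls alone, 18.5% of all tested genes were lower in every salt 12 hr library. The group means were 94.4 ± 2.05 CPM in the control and 44.5 ± 3.80 CPM at salt 12 hr (SD, n = 3). The fitted log2 fold change was -1.09 (SE 0.208, 95% interval -1.53 to -0.65), which is a level 2.13-fold lower, with an adjusted p of 0.00237 by edgeR's quasi-likelihood test.

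In lanes 3 and 4, which held controls, the single salt 12 hr library stood below each control. Salt 12 hr replicate 1 ran in lane 2 and has no control in its lane. In lane 3 the control library had 96.2 CPM and the salt 12 hr library 40.5 CPM. In lane 4 the control libraries had 94.9 and 92.2 CPM and the salt 12 hr library 44.8 CPM. With the lane as a term in the fit the log2 fold change was -1.14 (SE 0.253, adjusted p = 0.0128, edgeR). In a bulk root sample, fewer cells that express the gene and less transcript in each such cell cannot be told apart.

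At the earlier times of salt Glyma06g09100 was not called. At salt 1 hr its libraries had 99.5, 67.7 and 85.8 CPM, and at salt 6 hr 121, 73.4 and 94.9 CPM. Both groups overlapped the control, with log2 fold changes of -0.16 (95% interval -0.59 to 0.27) and 0.03 (95% interval -0.40 to 0.46). Tested over the 3 salt time points together, Glyma06g09100 was the only member whose course differed from the control (adjusted p = 0.0041, edgeR), against 22.2% of all tested genes.

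Under dehydration Glyma06g09100 was lowest at the first time point. The dehydration 1 hr libraries had 78.1, 70.7 and 61.2 CPM, all below the 3 controls. The difference of -0.43 (SE 0.206, 95% interval -0.86 to 0.00) did not pass the test (adjusted p = 0.241, edgeR). At dehydration 6 hr it had 64.2, 108 and 89.5 CPM and at dehydration 12 hr 83.4, 76.7 and 97.3 CPM. Both of these groups overlapped the control.

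Set directly against dehydration at the same hour, salt 12 hr had less Glyma06g09100 in each library. The log2 difference was -0.95 (SE 0.209, 95% interval -1.39 to -0.51, adjusted p = 0.00654, edgeR), short of the 2-fold limit, at which none of the 10 was called (11.6% of all tested genes were). Without the fold limit it was the 1 member with an adjusted p under 0.05, as 15.5% of all genes had. By edgeR 2 of the 10 had an unadjusted p under 0.05 (31.4% of all genes). Neither DESeq2 nor limma called a member at the 2-fold limit. Over the 9 alternatives, by edgeR, DESeq2 or limma, the log2 difference of Glyma06g09100 was -0.99 to -0.91. Their adjusted p ran from 0.000393 to 0.0502. The adjusted p for Glyma06g09100 was 0.0502 once the lane was a term, with a log2 difference of -0.99. Leaving out dehydration 12 hr replicate 2 or salt 12 hr replicate 1 took the difference past 2-fold, to -1.02 (adjusted p = 0.0166) and -1.01 (adjusted p = 0.0175).

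Glyma04g09000, the homoeologous copy, was at 106, 86.4 and 80.3 CPM in the control. At salt 12 hr it stood at 83.8, 64.7 and 91.4 CPM. The library at 64.7 CPM lay below the lowest control, at 80.3 CPM, and the others within the range of the controls. Its log2 fold change was -0.18 (SE 0.256, 95% interval -0.72 to 0.35, adjusted p = 0.664, edgeR). Over the 7 groups its mean moved only between 79.8 and 91.6 CPM, with single libraries between 58.6 and 114 CPM.

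**Figure D2:**
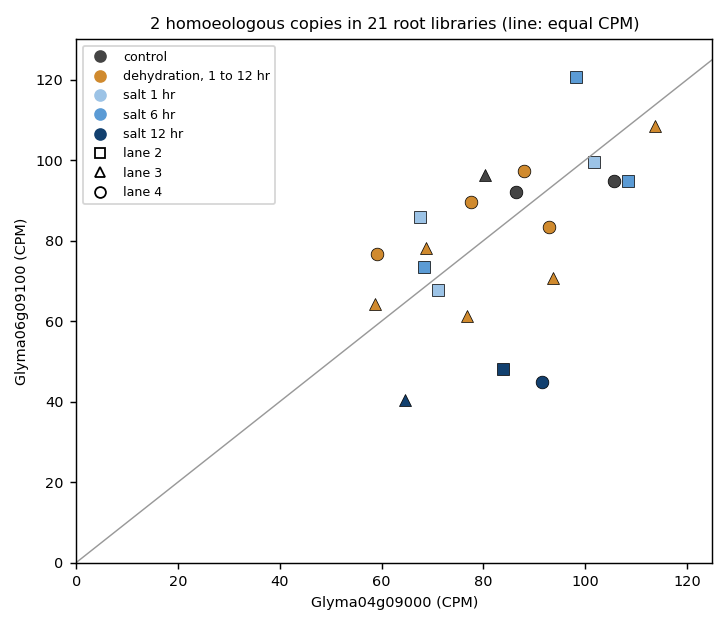
Glyma06g09100 (y axis, CPM) against its homoeologous copy Glyma04g09000 (x axis, CPM) in the 21 libraries; colour gives the group, shape the sequencing lane, and the line marks equal CPM. The 3 salt 12 hr libraries, from lanes 2, 3 and 4, have ratios of 0.57, 0.63 and 0.49, under those of all 18 others.

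The ratio of the copies within a library does not depend on how libraries are scaled, and it tests whether the copies moved unequally. Reads that fit both copies equally well had been dropped before counting and are in neither. The ratio of Glyma06g09100 to Glyma04g09000 was 0.90, 1.07 and 1.20 in the control libraries. At salt 12 hr it was 0.57, 0.63 and 0.49, whereas the 18 other libraries ranged from 0.75 to 1.3. How many of the 31 tested pairs show such a gap was not counted. The shift was -0.90 on the log2 scale (SE 0.198, 95% interval -1.31 to -0.49), with an adjusted p of 0.00556 by limma over all 31 tested HD-Zip pairs. It was the only pair of the 31 called at salt 12 hr, 3.23% of them. The adjusted p was 0.0536 without control replicate 3 and 0.0557 without salt 12 hr replicate 3, each with a shift of -0.80, so that the call was lost without either of these libraries. In the other 5 comparisons with the control the shift of this pair lay between -0.25 and 0.06. No HD-Zip III pair was called in these, where 3.23%, 6.45% and 3.23% of the 31 pairs were called at 1, 6 and 12 hr of dehydration, 3.23% at salt 1 hr and 0% at salt 6 hr.

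At salt 12 hr many members had lower values than in the control. Of the 10 genes, 1 was called, against 12.4% of all tested genes (5.18% called lower). The median log2 fold change of the members was -0.31, beside -0.04 over all tested genes, and 9 of the 10 had a value under 0, as had 52.8% of all genes. The size of this median depended on single libraries. It was -0.43 without salt 12 hr replicate 1, -0.19 without replicate 2 and -0.38 without replicate 3. By edgeR 5 of the 10 had an unadjusted p under 0.05, as had 32.2% of all genes. In 5 of the 10, every salt 12 hr library lay below every control library, a pattern shown by 18.5% of all tested genes. These 5 were Glyma06g09100, Glyma15g13640, Glyma09g02750, Glyma08g21610 and Glyma07g01940, and only the first passed the test. The summed CPM of the 10 genes was 433 ± 4.82 in the control and 311 ± 39.1 at salt 12 hr (SD, n = 3), with ranges of 428 to 438 and 267 to 340. A sum below every control library was not particular to that time: it was 356 ± 25.4 at dehydration 1 hr, with a range of 333 to 383, and 388 ± 34.2 at dehydration 12 hr, with a range of 351 to 418. The groups of dehydration 6 hr, salt 1 hr and salt 6 hr overlapped the control, at 433 ± 116, 420 ± 54.3 and 419 ± 88.2. Each group was set against the same 3 control sums, which lay much closer together than those of any other group. How often other sets of 10 genes lie below the controls in this way was not counted. The lowest of all sums, 267, was that of salt 12 hr replicate 2. The sums have no test, and the genes with more reads weigh most in them.

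**Figure D3:**
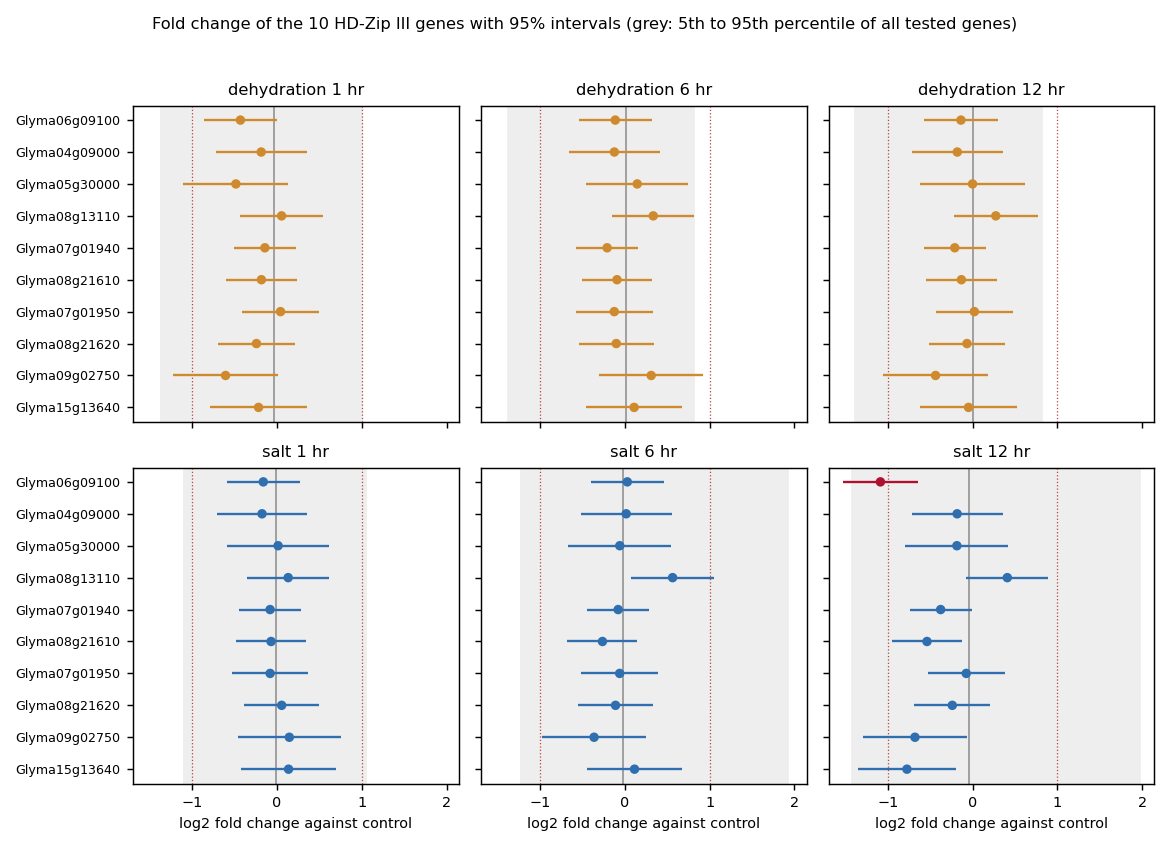
Log2 fold change of each HD-Zip III gene against the control (x axis) with its 95% interval, for each stress and time; the grey band runs from the 5th to the 95th percentile of all tested genes, the grey line is their median, dotted lines mark 2-fold and red marks a called gene. Only Glyma06g09100 at salt 12 hr, at -1.09, is called, and 53 of the 60 intervals lie inside the 2-fold lines.

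Glyma15g13640 came next. Its control libraries had 32.4, 38.6 and 48.2 CPM, and its salt 12 hr libraries 31.4, 18.9 and 19.9 CPM. The groups did not overlap, but replicate 1 of salt 12 hr, at 31.4 CPM, stood just under the lowest control, at 32.4 CPM. The log2 fold change was -0.77 (SE 0.273, 95% interval -1.35 to -0.20, adjusted p = 0.0589, edgeR) and did not pass the test. It was called without salt 12 hr replicate 1 (-1.03, adjusted p = 0.0328) and with the lane as a term (-1.04, adjusted p = 0.044). Against dehydration 12 hr, with 41.9, 43.7 and 29.7 CPM, the difference was -0.73 (95% interval -1.31 to -0.15, adjusted p = 0.0809, edgeR).

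Its homoeologous copy Glyma09g02750 varied widely under dehydration. It had 77.3, 66.8 and 66.0 CPM in the control. It had 50, 47.8 and 40.1 CPM at dehydration 1 hr and 55.3, 49.9 and 49.8 CPM at dehydration 12 hr, all under the controls. Between these times, at dehydration 6 hr, it had 49.5, 139 and 72.4 CPM. The value of 139 CPM, in replicate 2, was the highest of the gene in the 21 libraries. This library was not high for Glyma09g02750 alone. Glyma04g09000 also had its highest value there, at 114 CPM. The summed CPM of the 10 genes was highest there too, at 543, beside 311 in replicate 1 of the same group.

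No time point of dehydration passed the test for Glyma09g02750. The log2 fold changes were -0.61 (SE 0.294, adjusted p = 0.249), 0.31 (SE 0.291, adjusted p = 0.653) and -0.44 (SE 0.294, adjusted p = 0.626) at 1, 6 and 12 hr by edgeR. Tested over the 3 time points together the adjusted p was 0.138, and 0.0301 without dehydration 6 hr replicate 1, the fit in which it was called. None of the 10 was called over the course of dehydration with all libraries in the fit, against 7.67% of all tested genes; Glyma09g02750 alone had an unadjusted p under 0.05 (23.4% of all genes) and DESeq2 and limma called none.

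Under salt Glyma09g02750 had 82.0, 90.0 and 60.3 CPM at 1 hr, 39.0, 49.9 and 73.7 CPM at 6 hr, and 52.2, 35.8 and 43.3 CPM at 12 hr. The last group lay below the control without passing the test, at -0.68 (95% interval -1.30 to -0.06, adjusted p = 0.118, edgeR). At 1 hr salt and dehydration differed by 0.75 (95% interval 0.13 to 1.37), with an adjusted p of 0.438 by edgeR, and these groups shared no lane. It was the 1 member with an unadjusted p under 0.05, as 9.9% of all genes had. By edgeR no gene of the 36691 was called in that comparison (0%). DESeq2 called 86 genes and limma 0 or 1, depending on the pseudocount, none of them a member.

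The ratio of Glyma09g02750 to Glyma15g13640 set 1 library apart. It was 2.38, 1.73 and 1.37 in the control and 1.66, 1.89 and 2.18 at salt 12 hr, so that these groups overlapped. That library was salt 6 hr replicate 1, at 0.62, with the other 20 at 1.14 to 2.92, and in it Glyma15g13640 reached its highest level, 63.0 CPM. The other 2 libraries of that group were at 1.82 and 1.91. A highest level in salt 6 hr replicate 1 was not particular to Glyma15g13640. It was also seen for Glyma06g09100, Glyma08g13110, Glyma07g01940 and Glyma07g01950, whereas Glyma09g02750 had 39.0 CPM there. In every comparison with the control the 95% interval of the shift included 0. The shift was -0.41 at dehydration 1 hr, -0.39 at dehydration 12 hr and -0.46 at salt 6 hr (SE 0.341 each). At salt 12 hr it was 0.09 (95% interval -0.62 to 0.80).

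**Figure D4:**
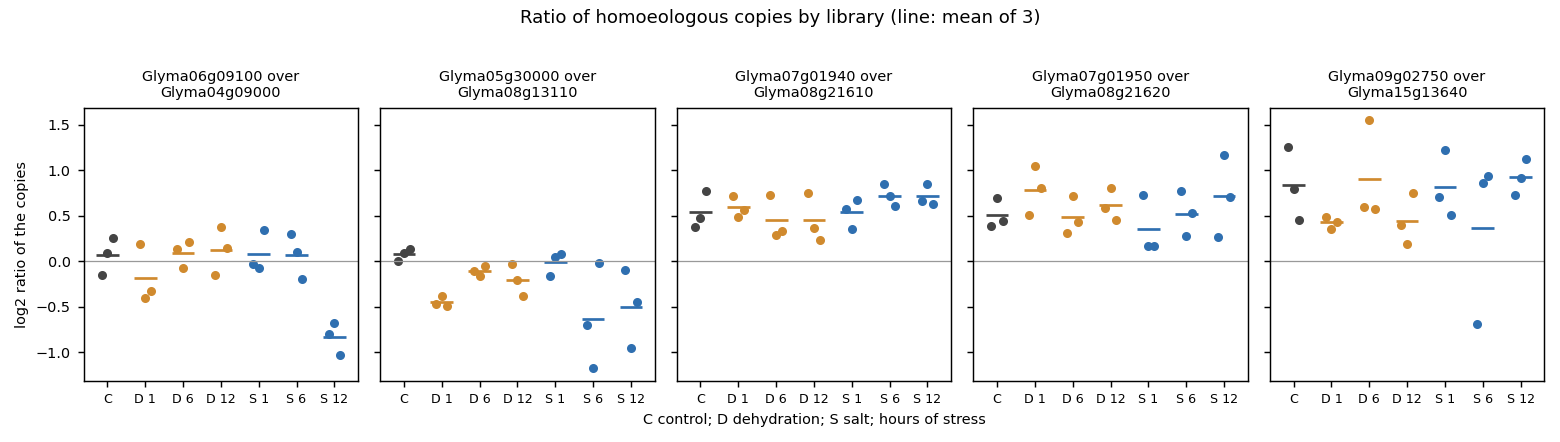
Log2 ratio of the homoeologous copies (y axis) by library in the 7 groups (x axis: C control, D dehydration, S salt, with hours of stress) for the 5 pairs; each point is 1 library and each line the mean of 3. The first panel shows the salt 12 hr libraries apart from the rest, with a shift of -0.90, and the last panel the single salt 6 hr library with a ratio of 0.62.

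Glyma08g13110 stood above the control at salt 6 hr without passing the test. Its control libraries had 9.07, 12.7 and 14.3 CPM. At salt 6 hr it had 19.7, 17 and 16.9 CPM, all above the controls, and it was the only member of the 10 to show this, as 15.2% of all genes did. The log2 fold change was 0.56 (SE 0.232, 95% interval 0.08 to 1.05), with an adjusted p of 0.117 by edgeR, so that it was not called. All libraries of salt 6 hr ran in lane 2 and none of the controls did. With the lane as a term the value was 1.03 (SE 0.433, adjusted p = 0.352). At salt 12 hr, with 12.8, 17 and 18.1 CPM, it overlapped the control and was the only member with a log2 fold change above 0, at 0.41 (95% interval -0.08 to 0.89). Values above 0 were not particular to salt. Under dehydration they were 0.05, 0.33 and 0.27 at 1, 6 and 12 hr, none of them called.

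Glyma05g30000, its homoeologous copy, was not higher at 6 or 12 hr of salt. It had 9.07, 13.5 and 15.8 CPM in the control, 12.1, 7.48 and 16.6 CPM at salt 6 hr and 11.9, 8.77 and 13.2 CPM at salt 12 hr, and these groups overlapped. The ratio of Glyma05g30000 to Glyma08g13110 was 1.00, 1.06 and 1.1 in the control, and 0.62, 0.44 and 0.98 at salt 6 hr. The shift of -0.71 (SE 0.279, 95% interval -1.29 to -0.13) had an adjusted p of 0.159 by limma over the 31 pairs, of which none was called at salt 6 hr. Without salt 6 hr replicate 3, the library with a ratio of 0.98, the shift was -1.01 (adjusted p = 0.0393). The ratio also lay below every control library in the other stress groups except salt 1 hr, which overlapped the control. It was 0.90 to 0.97 at dehydration 6 hr, 0.76 to 0.98 at dehydration 12 hr and 0.52 to 0.93 at salt 12 hr, where the shift was -0.58 (95% interval -1.16 to 0.01, adjusted p = 0.184, limma). At dehydration 1 hr it was 0.72, 0.76 and 0.71, with a shift of -0.52 (95% interval -1.11 to 0.06, adjusted p = 0.388, limma). Each of these groups was set against the same 3 control libraries, whose ratios lay close together, at 1.00 to 1.1. No shift of this pair was called with all libraries in the fit. How many of the 31 pairs lay below every control library in this way was not counted. Glyma05g30000 and Glyma08g13110 are the members with the fewest reads, down to 30 in 1 library.

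The remaining 4 genes form 2 pairs with neighbouring identifiers. Glyma07g01940 had 32.7, 36.5 and 39.8 CPM in the control and 28.4, 25.7 and 30 CPM at salt 12 hr. Glyma08g21610 had 25.3, 26.3 and 23.3 CPM in the control and 18, 14.2 and 19.4 CPM at salt 12 hr. Both homoeologous copies therefore stood below every control library at 12 hr of salt. Their log2 fold changes were -0.38 (95% interval -0.74 to -0.01, adjusted p = 0.142) and -0.54 (95% interval -0.95 to -0.12, adjusted p = 0.068) by edgeR, and neither was called. Their ratio lay between 1.17 and 1.80 in all 21 libraries, with a shift at salt 12 hr of 0.17 (95% interval -0.23 to 0.57).

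The pair with the neighbouring identifiers stayed near the control. Glyma07g01950 had 26.5, 33.8 and 30.8 CPM in the control and 29.0, 28.4 and 29.1 CPM at salt 12 hr. Its log2 fold change was -0.08 (95% interval -0.53 to 0.38). Glyma08g21620 had 20.2, 20.9 and 22.7 CPM in the control and 24.0, 12.6 and 17.9 CPM at salt 12 hr, with a log2 fold change of -0.24 (95% interval -0.69 to 0.21). Both overlapped the control at that time, and the intervals leave out a change of 2-fold in either direction. Glyma08g21620 had 19.1, 17.7 and 17.2 CPM at dehydration 1 hr, all below its controls, with a log2 fold change of -0.24 (adjusted p = 0.549, edgeR).

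Under dehydration no member was called, although most had values under the control at 1 and 12 hr. At 1, 6 and 12 hr their median log2 fold change was -0.20, -0.10 and -0.10, beside -0.03, 0.02 and 0.01 over all tested genes. At both 1 and 12 hr 8 of the 10 had a log2 fold change under 0, as had 52.5% and 49% of all genes. None was called by edgeR, DESeq2 or limma at any of these times, and none had an unadjusted p under 0.05. Of all tested genes 2.59%, 2.03% and 2.01% were called, and 20.8%, 15.5% and 12.5% had an unadjusted p under 0.05. At 1 hr 3 of the 10 lay below every control library (Glyma06g09100, Glyma09g02750 and Glyma08g21620), as did 14.1% of all genes. At 6 hr there were none and at 12 hr 1 (Glyma09g02750), beside 11.3% and 9.85% of all genes. Of the 30 intervals under dehydration, 27 lay within a 2-fold change in both directions.

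At the first times of salt no member was called either. At 1 and 6 hr, 5 and 6 of the 10 had a log2 fold change under 0, as had 51.3% and 51.8% of all genes. At salt 1 hr the median log2 fold change of the members was -0.03 beside -0.01 over all genes, and none was called (1.6% of all genes were) or had an unadjusted p under 0.05 (15% of all genes). At salt 6 hr the median was -0.06 beside -0.03, and none was called (9.66% of all genes were), with Glyma08g13110 as the 1 member with an unadjusted p under 0.05 (28.4% of all genes). DESeq2 and limma called none at either time. Between salt and dehydration at 6 hr, which shared no lane, no member was called by edgeR, DESeq2 or limma (14.7% of all genes were called by edgeR). The 1 member with an unadjusted p under 0.05 was Glyma09g02750, with a difference of -0.67 (adjusted p = 0.109, edgeR), beside 35% of all genes.

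The members varied together only in part over the 21 libraries. Over the 45 pairs of members Pearson's r of the log2 CPM ran from -0.06 to 0.81, with a median of 0.46, and the median over the 5 homoeologous pairs was also 0.46. The highest value, 0.81, joined Glyma06g09100 with Glyma15g13640, which are not homoeologous copies and were the members with the lowest fold changes at salt 12 hr. Glyma06g09100 and Glyma04g09000 had an r of 0.46. These values describe libraries that share 7 groups and 3 lanes, and they have no test.

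Among all tested genes, the 3 whose log2 CPM followed Glyma06g09100 most closely were Glyma08g04410, Glyma20g28700 and Glyma07g06980, with r of 0.88, 0.88 and 0.87 over 21 libraries. Their log2 fold changes at salt 12 hr were -1.39, -2.65 and -0.95, which is no separate result, since they were picked for their likeness over the same libraries. The files give these identifiers no name. For the other members the closest gene was Glyma16g18090 for Glyma04g09000 (0.88), Glyma17g05490 for Glyma05g30000 (0.82), Glyma09g34300 for Glyma08g13110 (0.79), Glyma20g32660 for Glyma07g01940 (0.79) and Glyma09g37400 for Glyma08g21610 (0.86). It was Glyma09g28470 for Glyma07g01950 (0.81), Glyma06g09360 for Glyma08g21620 (0.79), Glyma09g32760 for Glyma09g02750 (0.88) and Glyma10g08480 for Glyma15g13640 (0.88).

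The other classes of HD-Zip genes give the frame for the single call. At salt 12 hr, 2 of 27 tested HD-Zip I genes were called higher and 1 lower, 1 of 24 HD-Zip II genes higher and 2 lower, and 1 of 7 HD-Zip IV genes lower. Over all tested genes 12.4% were called, and with so few genes a class cannot be told apart from that share. Of the 31 listed HD-Zip IV genes only these 7 had enough reads to be tested. The median log2 fold changes of the tested HD-Zip I, II and IV genes were 0.01, -0.29 and -0.91, beside -0.31 for the 10 HD-Zip III genes. The difference between the classes was not tested.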

How the data were processed

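Roots of 21 samples in 7 groups of 3 were profiled by single-end RNA-seq. Per the study's methods, GSNAP was the aligner the authors used, against the soybean assembly with Glyma1.0 gene calls, and only reads with 1 location were kept, so reads shared by homoeologous copies are missing. The counting program and its use of strand are not given in the sources used here. The deposited tables hold whole-number counts per gene and normalized values (a signal) that the authors made with DESeq 1.7.10, and these equal the counts divided by a size factor per library.

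Groups came from the labels. Counts were fitted with edgeR 4.0.16 (R 4.3.3; TMM, filterByExpr, robust quasi-likelihood fit of 1 model over 21 libraries), with Benjamini-Hochberg adjustment over 36691 genes. Standard errors were derived from the F statistics. Ratios of copies (pseudocount 0.5) were tested with limma 3.58.1 over 31 HD-Zip pairs. Levels are CPM after TMM. The fits were tested on simulated data. Alternatives used DESeq2 1.42.0, limma on log2 of the normalized values (pseudocount 1 or 0.1), other filters and scalings, the lane, a replicate block, and each library left out in turn. No libraries within a group were alike within sampling noise.

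The genes named are the 10 members, the 2 other HD-Zip III genes of the study's list, and the tested genes closest in log2 CPM (prior count 2; the first 3 for a called member, otherwise the first). The members and lists were chosen with earlier results of these data known. Planned lists of cell type markers and of xylem genes were not used, since 0 of 59048 rows of the reference gene table carry the identifiers of the files; lengths and sequences were not used for the same reason.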

Additional observations from a re-analysis of the deposited data

Results flagged for a closer look

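For Glyma06g09100 the effects of the stresses at 12 hr differed by a test of the difference itself: the log2 fold change of salt 12 hr against dehydration 12 hr was -0.95 (adjusted p = 0.00654, edgeR's quasi-likelihood test). All 3 salt libraries (48.1, 40.5 and 44.8 CPM) lay below all 3 dehydration libraries (83.4, 76.7 and 97.3 CPM). The difference fell short of the 2-fold limit and so was not called. The dehydration libraries all ran in lane 4 and the salt libraries in lanes 2, 3 and 4. Within lane 4 the salt library had 44.8 CPM, and with the lane as a term the log2 difference was -0.99 with an adjusted p of 0.0502. The part of the lane in the result was not tested further.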

How the results depend on the processing

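The decrease of Glyma06g09100 at salt 12 hr was called in all 9 alternatives (log2 fold change -1.14 to -1.05) and in all 21 fits with a library left out (-1.14 to -1.02, adjusted p from 0.00122 to 0.0152). The count of members called at salt 12 hr was 2 with the lane as a term, and 1 to 2 with a library left out (2 without salt 12 hr replicate 1); the added gene was Glyma15g13640. For salt against dehydration at 12 hr the count was 1 with no fold limit and 0 to 1 with a library left out. Over the course of dehydration it was 0 to 1 with a library left out. Over the course of salt it was 2 with the DESeq2 test and 1 to 2 with a library left out, where the second gene was Glyma15g13640 without salt 6 hr replicate 1, salt 6 hr replicate 2 or salt 12 hr replicate 1, and Glyma09g02750 without dehydration 6 hr replicate 2. Pairs with a shifted ratio numbered 1, and 0 to 2 with a library left out (2 without salt 6 hr replicate 3). The cause of these changes was not tested. With the replicate number as a block, Glyma06g09100 at salt 12 hr was at -1.09 (adjusted p = 0.00434) and each count of calls was the same as without the block; 4 of 27 same-numbered correlations passed 0.1 (range -0.377 to 0.311), so the numbers were not taken as pairs. Of the 60 member values against the control, 31 kept their direction in every alternative and left-out fit. With 3 libraries a group, the 95% interval of a member at salt 12 hr spanned 0.73 to 1.24 on the log2 scale, so that small changes were not detectable with this number of libraries.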

Other observations

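The study's list holds 2 further HD-Zip III genes, Glyma12g08080 and Glyma11g20520. Glyma12g08080 had 59.7, 56.6 and 61.8 CPM in the control and 39.0, 38.3 and 43.3 CPM at salt 12 hr. As for Glyma06g09100, the salt 12 hr libraries lay below all 18 others, which ranged from 45.6 to 88.8 CPM. The share of all tested genes that lie so was not counted. The log2 fold change of -0.56 (SE 0.205, 95% interval -0.99 to -0.13) had an adjusted p of 0.0669 by edgeR and was not called, and against dehydration 12 hr it was -0.59 (adjusted p = 0.0601). Glyma11g20520 had 134, 143 and 128 CPM in the control and 123, 114 and 138 CPM at salt 12 hr, which overlapped, with a log2 fold change of -0.11 (95% interval -0.58 to 0.37).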
